A study of Mus musculus with 8 samples.

Results

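Ly6a encodes stem cell antigen-1 (SCA1), the surface protein used to divide the cells of this series. The gene was examined together with its Ly6/uPAR relatives Ly6e, Ly6c1, Ly6c2, Ly6d, Ly6k, Lypd3, Lypd6b and Lynx1, which makes 9 members. They were listed by symbol, with earlier results of these data known, and matched to Ensembl identifiers. Of the 9, 8 were among the 16341 genes of the count table and Ly6k was analysed here only by its sequence. RNA from the mouse mammary carcinoma cell line 4T1 was sequenced in 2 groups of 4 libraries, 4T1-Sca1+ and 4T1-Sca1-, separated by magnetic columns after staining for SCA1, and both groups were labelled CD45-, that is, without the pan-leukocyte surface protein. Neither group carried a further genotype change or treatment in the labels. The study's text and a label give the parental 4T1 line as the source of both fractions, while another label speaks of a stained 4T1 tumor. The libraries held 15041995 to 16968215 counts in 4T1-Sca1+ and 13561804 to 16142836 in 4T1-Sca1-. Nothing states that replicates were separate sorts or cultures, so p-values measure only the spread between these libraries.

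Ly6/uPAR proteins share a small, disulfide-bonded fold, and most are held on the outer face of the cell membrane by a glycosylphosphatidylinositol (GPI) anchor, although some are secreted. Many of the mouse genes lie side by side in a cluster on chromosome 15 and arose by duplication, so neighbouring genes can be close to identical in sequence. SCA1 is widely used to sort blood and mammary stem and progenitor cells. Ly6c proteins mark monocytes, some lymphocytes and endothelium, and other relatives act on nicotinic acetylcholine receptors or bind urokinase.

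The coding sequences of Ly6a, Ly6c1 and Ly6c2 are shown because their likeness limits how far their counts can be told apart. The first 90 coding bases of each are given 5′ to 3′ from GENCODE M21 transcripts (GRCm38). Capitals mark bases of Ly6c2 and Ly6a that differ from Ly6c1 at the same position, 6 in Ly6c2 and 4 in Ly6a.
Ly6c1: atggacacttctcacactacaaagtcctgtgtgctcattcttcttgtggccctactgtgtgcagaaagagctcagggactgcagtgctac
Ly6c2: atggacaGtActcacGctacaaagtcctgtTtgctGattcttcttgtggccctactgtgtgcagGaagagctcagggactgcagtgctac
Ly6a: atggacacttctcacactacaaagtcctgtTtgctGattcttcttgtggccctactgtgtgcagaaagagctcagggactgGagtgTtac
The longest annotated coding sequence of each gene was used, 444 bases for Ly6c1, 396 for Ly6c2 and 405 for Ly6a. Positions with a gap in either sequence were left out of the percentages. The aligned coding sequences of Ly6c1 and Ly6c2 were identical at 93.8% of positions, those of Ly6a and Ly6c2 at 83.6% and those of Ly6a and Ly6c1 at 78.1%. The longest run without a difference between Ly6c1 and Ly6c2 was 188 bases, from coding base 66 to 253 in both. A read that falls inside this run carries no base that separates the genes.
Shared run of Ly6c1 and Ly6c2: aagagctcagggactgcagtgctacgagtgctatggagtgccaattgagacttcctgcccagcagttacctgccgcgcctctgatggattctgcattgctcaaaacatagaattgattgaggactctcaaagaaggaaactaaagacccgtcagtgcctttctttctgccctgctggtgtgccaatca
Within these coding sequences, the longest identical run was 52 bases between Ly6a and Ly6c2 and 45 between Ly6a and Ly6c1. Every other pair of members had coding runs of at most 12 bases.

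Sharing was measured as the percent of all 50-base or 75-base words in a member's annotated transcripts that also occur in a transcript of another gene, on either strand. For Ly6a, 19.0% of 50-base words and 6.33% of 75-base words were shared. Its main partner was Ly6c1, with 195 shared words of 50 bases and 77 of 75 bases. Their whole transcripts thus share longer stretches than the 45 bases of their coding sequences. For Ly6c1, 32.8% and 19.0% were shared, mainly with Ly6c2, with which it had 379 words of 50 bases in common, and next with Ly6a. Ly6c2 shared 14.5% and 9.46%. Ly6e, Ly6d, Lynx1 and Lypd6b shared 0 words of either length, so no exact read of such length would match a further annotated gene. The 8.13% of 50-base words that Lypd3 shared lay in the antisense transcript Gm26550, which has no row among the counted genes. The library kit does not mark strand, and how the authors assigned reads that match several genes is not given in the sources used here, so values of Ly6a, Ly6c1 and Ly6c2 are uncertain to that extent.

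**Figure D1:**
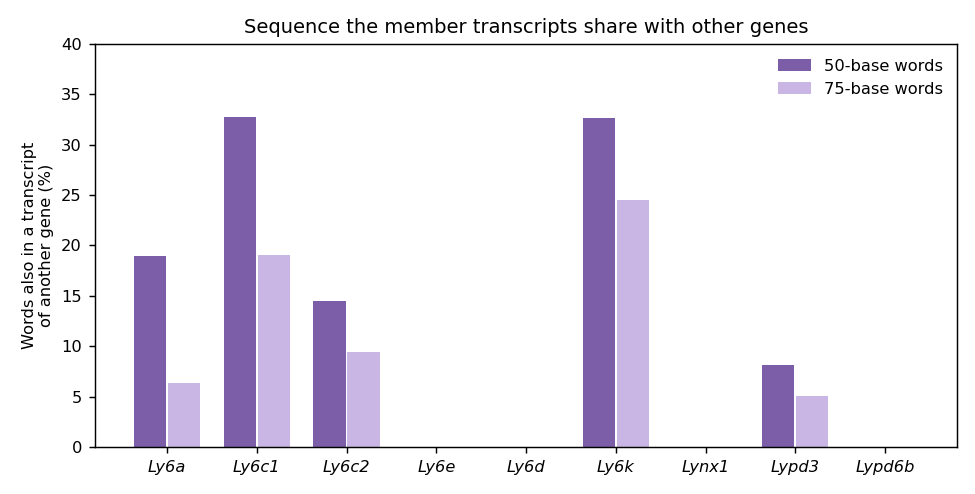
Percent of 50-base and 75-base words in the annotated transcripts of each member that also occur in a transcript of another gene (vertical axis, %). Ly6a, Ly6c1 and Ly6c2 share words with each other, Ly6k and Lypd3 with uncounted antisense transcripts, and the bars of Ly6e, Ly6d, Lynx1 and Lypd6b are at 0.

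The comparison of 4T1-Sca1+ with 4T1-Sca1- libraries asks which relatives follow the gene of the sorted protein. Ly6c1, Lynx1 and Ly6e were higher in 4T1-Sca1+ libraries, by 68.6-fold, 10.7-fold and 2.31-fold. Lypd3 was abundant in both groups and passed no threshold. Ly6c2, Ly6d and Lypd6b stood at a few counts or none in every library and were below the expression filter. A relative is said here to follow Ly6a where edgeR's quasi-likelihood test gave a higher call at an adjusted p under 0.05 and its 4 4T1-Sca1+ values lay above all 4 4T1-Sca1- values. Of the 8 counted members 5 were tested, and 4 of these met both conditions, Ly6a among them, while 0 were lower. Over all 11717 tested genes, 61.5% were called in either direction, 31.3% higher and 30.2% lower. The groups did not overlap for 54.7%, every 4T1-Sca1+ value lay above every 4T1-Sca1- value for 26.8%, and 26.3% met both conditions. A further measure is size, since 5.22% of tested genes were called and at least 2-fold higher, as were Ly6a, Ly6c1, Lynx1 and Ly6e. Ly6a, Ly6c1 and Lynx1 passed the expression filter through their 4T1-Sca1+ libraries alone, so the count of tested members that were higher is not support for a property of the family. In bulk RNA, fewer cells that express a gene and less RNA per cell cannot be told apart.

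**Figure D2:**
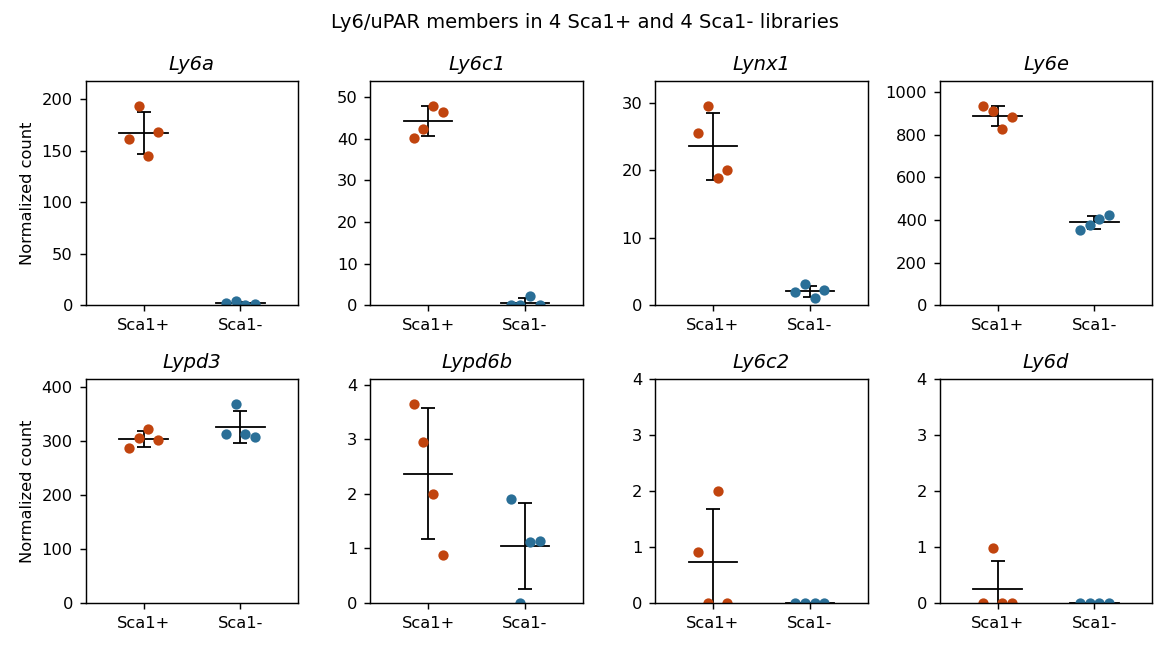
Normalized counts (vertical axis, linear and starting at 0, with its own range in each panel) of the 8 counted members in 4 4T1-Sca1+ and 4 4T1-Sca1- libraries. Points are libraries, horizontal lines are means and bars are SDs. The groups are apart for Ly6a, Ly6c1, Lynx1 and Ly6e and overlap for Lypd3, Lypd6b, Ly6c2 and Ly6d.

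Ly6a (ENSMUSG00000075602, GRCm38 chr15:74994877-74998031, minus strand) serves as a check of the labels and is no finding, because the cells were separated by its protein. Its raw counts were 176, 196, 145 and 192 in 4T1-Sca1+ replicates 1 to 4 and 2, 4, 0 and 1 in 4T1-Sca1- replicates 1 to 4. Every library was on the side its label gives. The log2 fold change was 6.42 ± 0.27 (SE, edgeR adjusted p = 2.13e-12), the second largest of all tested genes, and without 4T1-Sca1- replicate 2 it was 7.14. Even in 4T1-Sca1+ libraries the transcript was far from abundant, at 9.15 ± 1.12 CPM per kilobase of exon (SD, n = 4), where CPM is the count scaled to the effective size of its library.

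Ly6c1 (ENSMUSG00000079018, chr15:75044018-75048830, minus strand) encodes an antigen of the Ly6C type found on monocytes, endothelium and some lymphocytes. Its raw counts were 44, 43, 48 and 53 in 4T1-Sca1+ replicates 1 to 4 and 0, 0, 2 and 0 in 4T1-Sca1- replicates 1 to 4. All 4 4T1-Sca1+ libraries were thus close to each other, and the 2 counts of the other group came from 1 library. The normalized counts averaged 44.2 ± 3.53 against 0.557 ± 1.11 (SD, n = 4 each), a log2 fold change of 6.10 ± 0.44 (SE, edgeR adjusted p = 2.52e-09). Only Ly6a and 2 other tested genes had a larger fold change. All of these genes, Ly6c1 included, stood near the floor in 4T1-Sca1- libraries, so their order rests on very few counts. Ly6a, with which Ly6c1 shares words, had 709 counts over the 4T1-Sca1+ libraries beside 188 of Ly6c1. Whether reads that match both genes entered the Ly6c1 counts was not tested. The ratio of summed counts was 83.9, with a 95% exact interval from 22.9 to 698 that covers counting error only. Without 4T1-Sca1- replicate 3 the remaining 3 libraries of that group were at 0, the fitted value of 8.51 then depended on the prior count, and against a floor of 3 counts in each library Ly6c1 was at least 14.2-fold higher in 4T1-Sca1+.

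Ly6c2 (ENSMUSG00000022584, chr15:75108158-75111970, minus strand), the near-identical neighbour of Ly6c1 and a monocyte antigen as well, was almost absent. It had 1, 0, 2 and 0 counts in 4T1-Sca1+ replicates 1 to 4 and 0 in each 4T1-Sca1- library. Both groups were under the floor of 3 counts per library, so no fold change is given, and a difference was not detectable at this depth (exact permutation test, two-sided, p = 0.429). Set beside the 188 counts of Ly6c1 over the 4T1-Sca1+ libraries, the 3 counts of Ly6c2 show that the rise of Ly6c1 was not accompanied by counts assigned to its closest copy. Summing Ly6c1 and Ly6c2 into 1 feature gave a log2 fold change of 6.12 ± 0.44 (SE), and summing Ly6a with both, an alternative chosen after seeing the data, gave 6.42 ± 0.21.

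Because monocytes, endothelium and lymphocytes also make Ly6c proteins, markers of these cells were read beside Ly6c1. Of 17 monocyte and neutrophil markers, 14 were counted and 5 were tested. Of the 5, 4 were higher and 1 was lower, beside 31.3% higher and 30.2% lower over all tested genes. The summed normalized counts of the list ran from 1112 to 1177 in 4T1-Sca1+ libraries and from 1061 to 1164 in 4T1-Sca1- libraries. The sum was carried by Cd14, a co-receptor for bacterial lipopolysaccharide, which was lower with a log2 fold change of -0.29, while S100a8, Csf1r, Cd74 and Cd68 were higher by 2.38, 1.18, 0.94 and 0.65. Of the 14 counted markers, the 6 at the floor were Lyz2, Fcgr3, Ccr2, S100a9, Csf3r and Mpo, which had at most 3 counts in every library, with Lyz2 and Mpo at 0 in all 4T1-Sca1+ libraries. Ptprc, which encodes CD45, had 2.32 ± 0.788 normalized counts in 4T1-Sca1+ and 0.535 ± 0.619 in 4T1-Sca1- (SD, n = 4 each), with its groups apart but below the expression filter.

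Calls in the lists below stand beside 31.3% higher and 30.2% lower over all tested genes. Of 10 endothelial markers 8 were counted, 2 were tested and 1, Tie1, was lower. Their sums ran from 147 to 191 in 4T1-Sca1+ libraries and from 145 to 188 in 4T1-Sca1- libraries, mostly from Egfl7, which passed no threshold. Cdh5, Tek, Emcn and Vwf had at most 3 counts in every library, and Tek and Emcn were at 0 in 4T1-Sca1+. Pecam1 had 5.01 ± 1.70 normalized counts in 4T1-Sca1+ and 1.04 ± 0.842 in 4T1-Sca1- (SD, n = 4 each), below the filter, with its groups apart. Also below the filter, with overlapping groups, Esam had 5.71 ± 1.80 against 8.49 ± 4.00 and Cdh5 had 0.676 ± 0.872 against 1.87 ± 1.09. Vwf overlapped as well, at 1.20 ± 1.27 against 0.809 ± 1.08. Of 9 lymphocyte markers 4 were counted and 0 were tested, with sums of 4.99 to 9.63 and 3.82 to 6.85, the most from Cd79a. Cd3e, Cd4 and Cd8a had at most 2 counts in any library. Of 10 fibroblast markers 7 were counted and 3 tested. Col1a1 and Pdgfra were higher, while Postn passed no threshold, at 24.7 ± 7.87 in 4T1-Sca1+ against 24.2 ± 3.85 normalized counts in 4T1-Sca1-. The sums, led by Pdgfra, ran from 635 to 671 in 4T1-Sca1+ and from 395 to 468 in 4T1-Sca1-. Below the filter, groups overlapped for Col1a2, at 4.43 ± 1.44 against 4.61 ± 2.35, and for Fap, at 0.958 ± 1.40 against 2.96 ± 1.21 (SD, n = 4 each). Fap stayed at 4 counts or fewer. Also below the filter, Dcn had 11.4 ± 3.70 against 1.06 ± 0.0848 normalized counts and Pdgfrb had 6.19 ± 4.13 against 0.257 ± 0.513 (SD, n = 4 each), with the groups apart for both. All 10 epithelial markers were counted and 9 were tested, of which 2 were higher and 5 were lower, with log2 fold changes from -0.69 for Cdh1 to 0.38 for Krt18. The list had 60375 to 66495 and 62796 to 67943 summed normalized counts. Keratin Krt7 led this list and Krt5 had at most 2 counts. Whether other cells had a part in the Ly6c1 value was not tested.

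Lynx1 (ENSMUSG00000022594, chr15:74747852-74753046, minus strand) encodes a GPI-anchored modulator of nicotinic acetylcholine receptors best known from neurons. Raw counts were 28, 30, 19 and 23 in 4T1-Sca1+ replicates 1 to 4 and 2, 3, 1 and 2 in 4T1-Sca1- replicates 1 to 4. The lowest 4T1-Sca1+ library lay well above the highest 4T1-Sca1- library, although the level was low in both groups. The means were 23.6 ± 4.95 and 2.10 ± 0.817 normalized counts (SD, n = 4 each), a log2 fold change of 3.42 ± 0.37 (SE, edgeR adjusted p = 3.86e-07), which ranked at 27 of 11717 tested genes. Lynx1 shares no 50-base word with Ly6a or any further gene.

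Ly6e (ENSMUSG00000022587, chr15:74955051-74959905, plus strand) encodes a widely expressed GPI-anchored protein that interferon induces in many cell types. It was the most abundant member that followed Ly6a, with raw counts of 1019, 924, 826 and 1008 in 4T1-Sca1+ replicates 1 to 4 and 370, 366, 363 and 371 in 4T1-Sca1- replicates 1 to 4. The groups were far apart and each was narrow. Normalized counts averaged 887 ± 46.8 and 389 ± 30.9 (SD, n = 4 each), a log2 fold change of 1.21 ± 0.07 (SE, edgeR adjusted p = 6.23e-11). Its fold change ranked at 428 of 11717. Unlike Ly6a and Ly6c1, Ly6e had at least 363 counts in every 4T1-Sca1- library. With at least 10 counts required in every library, Ly6e was the 1 member still called higher, because Ly6a, Ly6c1 and Lynx1 then went untested.

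Lypd3 (ENSMUSG00000057454, chr7:24636550-24641118, plus strand) encodes C4.4A, a GPI-anchored relative of the urokinase receptor found in stratified epithelia and in carcinomas. Its raw counts were 314, 310, 324 and 345 in 4T1-Sca1+ replicates 1 to 4 and 328, 360, 281 and 269 in 4T1-Sca1- replicates 1 to 4. The groups overlapped. The means were 304 ± 14.9 and 326 ± 29.4 normalized counts (SD, n = 4 each), and the log2 fold change was -0.09 ± 0.07 (SE, edgeR adjusted p = 0.331). The 95% interval of the log2 fold change ran from -0.24 to 0.07, which leaves room for a small decrease and holds none of the increases seen in Ly6e, Lynx1 or Ly6c1. With offsets corrected for GC content Lypd3 was called lower, at -0.27 ± 0.06 (SE, edgeR adjusted p = 0.000888).

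Lypd6b (ENSMUSG00000026765, chr2:49787688-49948849, plus strand), which encodes a relative that modulates nicotinic receptors, had 4, 3, 2 and 1 counts in 4T1-Sca1+ and 2, 0, 1 and 1 in 4T1-Sca1-. The groups overlapped, and no difference was detectable at this depth (exact permutation test, two-sided, p = 0.171). Ly6d (ENSMUSG00000034634, chr15:74762056-74763620, minus strand), a marker of early B-lineage cells and of squamous epithelium, had 1 count in 4T1-Sca1+ replicate 2 and 0 in the other 7 libraries. No fold change is given for Ly6d, whose highest library stood under the floor of 3 counts.

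**Figure D3:**
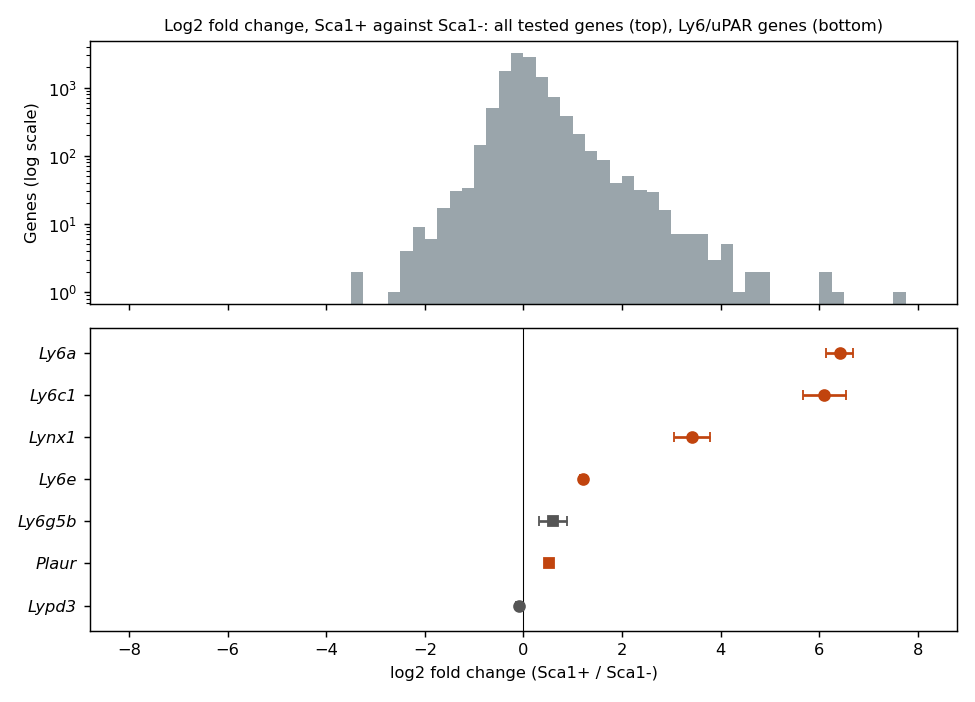
Top, number of tested genes (log axis) by log2 fold change between 4T1-Sca1+ and 4T1-Sca1-. Bottom, fitted log2 fold changes with SE bars of tested members (circles) and tested relatives (squares), in orange where called higher and in grey where not called. Ly6a and Ly6c1 sit at the far right of the distribution, and Lypd3 sits at its centre.

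The size of the difference was then compared between members, through the ratio of a pair of genes within each library on the log2 scale with a pseudocount of 0.5 normalized counts. The 5 tested members make 10 pairs, and the smallest p that an exact permutation test of 4 against 4 libraries can give is 0.0286. For 8 pairs the ratios of the groups did not overlap. Of these, only Ly6e with Lypd3 held none of Ly6a, Ly6c1 and Lynx1. Its exact permutation test, two-sided, gave p = 0.0286 (0.0357 after Benjamini-Hochberg adjustment over the 10 pairs). The adjusted value also counts the pairs given below only as a description, so nothing is drawn from it. The log2 ratio of Ly6e to Lypd3, both well counted in every library, was 1.54 ± 0.14 in 4T1-Sca1+ and 0.26 ± 0.20 in 4T1-Sca1- (SD, n = 4 each). Ratios with Ly6a, Ly6c1 or Lynx1 are given as a description, since Ly6a was set apart by the sort and all 3 entered through their 4T1-Sca1+ libraries, with 4 counts or fewer in each 4T1-Sca1- library. That of Ly6a to Lynx1 differed by 3.33 and that of Ly6a to Ly6e by 5.39 between the groups. The ratio of Ly6a to Ly6c1 was 1.90 ± 0.25 in 4T1-Sca1+ and 1.19 ± 2.5 in 4T1-Sca1- (SD, n = 4 each). The difference of 0.71 between the groups was smaller than the spread of the 4T1-Sca1- ratios, which rest on counts of 0 to 4, so these data do not resolve whether Ly6c1 and Ly6a differ in size of change. For Ly6c1 and Lynx1 the difference was 2.62 and the ratios of the groups overlapped, so it was not resolved either.

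Levels between genes were compared per length, in CPM per kilobase of exon (mean ± SD, n = 4). In 4T1-Sca1+ libraries Ly6e was highest at 15.5 ± 0.856, followed by Lypd3 at 12.2 ± 0.563, Ly6a at 9.15 ± 1.12, Ly6c1 at 1.74 ± 0.135 and Lynx1 at 0.334 ± 0.0706. These neighbours in the order did not overlap in any library. Below them, Lypd6b at 0.0602 ± 0.0308, Ly6d at 0.0219 ± 0.0438 and Ly6c2 at 0.0175 ± 0.0228 overlapped. In 4T1-Sca1- libraries Lypd3 was highest at 12.9 ± 1.14 and Ly6e second at 6.74 ± 0.541, apart from each other. The levels of Ly6a at 0.0972 ± 0.0939, Lynx1 at 0.0295 ± 0.0114, Lypd6b at 0.0262 ± 0.0198 and Ly6c1 at 0.0218 ± 0.0436 overlapped there. Lypd3 and Ly6e therefore changed places in the order between the groups.

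**Figure D4:**
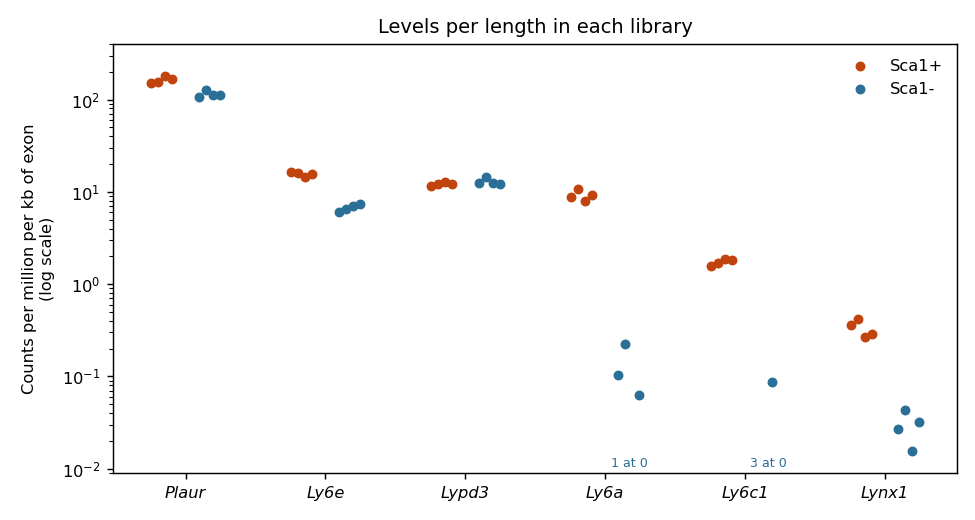
CPM per kilobase of exon (log axis) of tested members and Plaur in each library, 4T1-Sca1+ in orange and 4T1-Sca1- in blue. Libraries at 0 cannot be drawn on a log axis and are given as a number at the foot, 1 for Ly6a and 3 for Ly6c1, both in 4T1-Sca1-.

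A list of 35 other Ly6/uPAR genes was read for the rest of the family. Of these 16 were counted, 12 had at most 3 counts in every library, and 2 were tested. Of the 2 tested, 1 was higher, beside 31.3% of all tested genes. Plaur (chr7:24462484-24475968, plus strand), the receptor that focuses urokinase at the cell surface, was by far the most abundant relative at 164 CPM per kilobase in 4T1-Sca1+ and 114 in 4T1-Sca1-. Its raw counts were 6558, 6260, 7156 and 7603 in 4T1-Sca1+ replicates 1 to 4 and 4436, 4953, 4051 and 3899 in 4T1-Sca1- replicates 1 to 4. The groups were apart, at a smaller size of change than in the members that followed Ly6a, with a log2 fold change of 0.52 ± 0.06 (SE, edgeR adjusted p = 8.53e-07).

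The other relatives with at least 10 counts over the 8 libraries were Ly6g5b, Ly6g6c and Lypd5. Ly6g5b, a gene of the major histocompatibility region, had 15 to 27 counts in 4T1-Sca1+ libraries and 6 to 15 in 4T1-Sca1- libraries, with a log2 fold change of 0.60 ± 0.29 (SE, edgeR adjusted p = 0.0834) whose 95% interval ran from -0.01 to 1.21. Without 4T1-Sca1- replicate 4 it was called higher, at 0.80 ± 0.32 (SE, edgeR adjusted p = 0.0411). Ly6g6c, from the same region, had 8, 10, 14 and 12 counts in 4T1-Sca1+ and 6, 2, 5 and 6 in 4T1-Sca1-, so its groups were apart (exact permutation test, two-sided, p = 0.0286, the smallest possible), but it was below the expression filter. Once the filter was dropped Ly6g6c was called higher, at 1.03 ± 0.43 (SE, edgeR adjusted p = 0.0426). Lypd5 had 9, 3, 4 and 10 counts in 4T1-Sca1+ and 4, 9, 10 and 10 in 4T1-Sca1- and the groups overlapped (exact permutation test, two-sided, p = 0.200). These p-values are unadjusted for the 17 such exact tests of members and relatives.

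Most members depend on the GPI anchor to reach the surface, and 31 genes for making and attaching it were therefore read in the same fit. Of 28 counted and 27 tested, 8 were higher and 6 were lower, beside 31.3% and 30.2% of all tested genes, and the median log2 fold change was 0.03 beside 0.01 over all genes. The genes called highest were Pgap3, which remodels the lipid of the anchor, at 0.54 ± 0.11, and Pigh, a subunit of the enzyme of the first step, at 0.46 ± 0.12. The lowest were Pigf, which takes part in adding ethanolamine phosphate, at -0.57 ± 0.08, and Pigl, the deacetylase of the second step, at -0.44 ± 0.08 (log2 fold change ± SE). The machinery thus went both ways, with no called gene reaching a log2 fold change of 1 in either direction.

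The cluster position of the members was set beside the values of their neighbours. Within 500 kb of Ly6a, 9 other Ly6/uPAR genes were counted and 3 were tested, namely Ly6c1, Lynx1 and Ly6e, all higher, beside 31.3% of all tested genes. As given above, Ly6c1 and Lynx1 were tested only through their 4T1-Sca1+ libraries. In the same window 7 genes outside the family were counted and 3 were tested. Arc, a neuronal immediate early gene, was higher at 1.46 ± 0.28, and so was Them6, at 0.90 ± 0.12 (log2 fold change ± SE), while Jrk passed no threshold at 0.23 ± 0.11. Slurp1 and Lypd2, which have under 10 counts each and are named after their values were seen, had counts in 4T1-Sca1+ libraries only. Slurp1, which shares 9.31% of its 50-base words with the neighbouring Them6, had 0, 2, 3 and 2 counts in 4T1-Sca1+ and 0 in each 4T1-Sca1- library. Lypd2 had 1, 2, 1 and 3 counts in 4T1-Sca1+ and 0 in each 4T1-Sca1- library. Within 1000 kb, a window added after seeing the data, 17 genes outside the family were tested, of which 11 were higher and 0 were lower, with a median log2 fold change of 0.38, beside 31.3% higher, 30.2% lower and a median of 0.01 over all tested genes. The tested genes that the wider window added all lay on 1 side of Ly6a, from Zfp41 at 619 kb to Zfp707 at 971 kb. Ly6c1 at 46.0 kb and Lynx1 at -242 kb from Ly6a had larger fold changes than any tested gene outside the family in that window, and Ly6e, at only -35.0 kb, had a smaller one than Arc and, named after their values were seen, Mafa and Rhpn1.

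**Figure D5:**
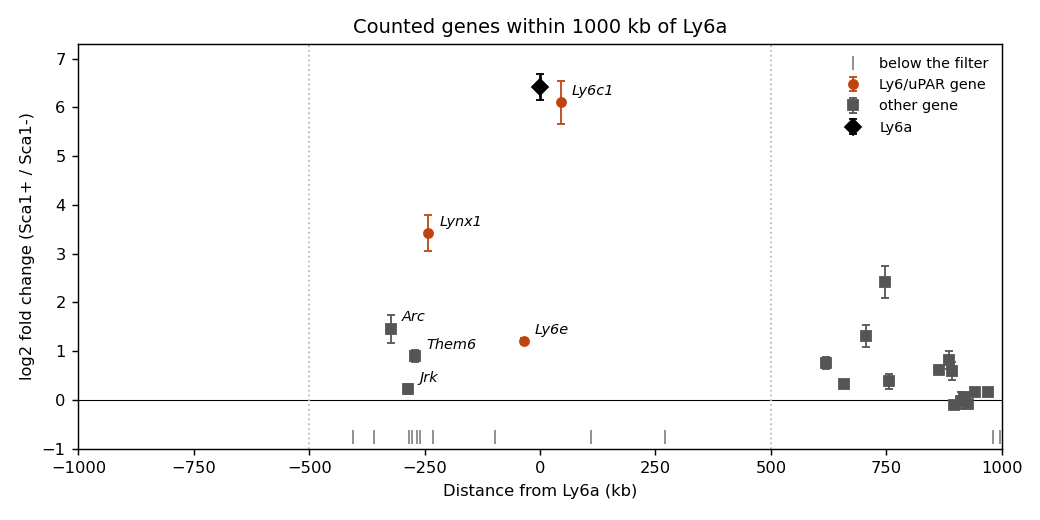
Log2 fold change with SE bars against the distance in kb between each counted gene and Ly6a, negative towards the start of the chromosome. Circles are Ly6/uPAR genes, squares are other genes, the diamond is Ly6a, ticks at the foot are genes below the expression filter and dotted lines mark 500 kb. Ly6c1 at 6.10 and Lynx1 at 3.42 stand above the other neighbours.

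The genes most like Ly6a were ranked by Pearson's r of log2 CPM over the 8 libraries, as a description, since both groups enter and share depth and sort. Of 10355 genes with a mean of at least 50 counts, 57 had an r above 0.99. The leading 5 were Iqgap2 and F13a1 at 0.997 and Elmo2, Trib2 and Ltf at 0.996. Among the members r was 0.994 for Lynx1, 0.971 for Ly6e, 0.958 for Ly6c1 and -0.34 for Lypd3. These r values mostly reflect the gap between the groups, and their order was not tested.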

How the data were processed

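Total RNA from 4 Sca1+ and 4 Sca1- libraries had been prepared with the TruSeq RNA v2 kit and sequenced on a NextSeq 500. The submitters' processing notes name cutadapt 1.16, STAR 2.5.3a and the builds GRCm38 and mm10. The counting program, annotation and strand setting are not given in the sources used here. The authors deposited whole-number read counts per gene, used for all tests, and a normalized signal table, which equalled counts over size factors to a relative difference of 5e-15 and left out 969 genes with a single count. It entered 1 alternative, as log2(value + 1).

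Counts were analysed in R 4.3.3 with edgeR 4.0.16 (filterByExpr, TMM, quasi-likelihood test, Benjamini-Hochberg adjustment over 11717 genes). Of 16341 genes, 16202 were given a symbol through GENCODE M21. Normalized counts are counts over DESeq2 median-of-ratios size factors, and CPM values use TMM library sizes. Genes below the filter were compared by an exact permutation test over libraries. All 9 members had transcripts for the word search, and coding sequences were aligned in Biopython 1.88. Alternatives were DESeq2 1.42.0, limma 3.58.1, other scalings, filters and thresholds, a replicate block and each library left out. Replicate numbers were not taken as pairs, and whether same-numbered libraries came from the same sort is not stated. Named were all members, relatives with at least 10 counts, the extremes of each list and the 5 genes most like Ly6a. The values of 1 further gene list are not reported here. Members and lists were chosen with earlier results of these data known. The exact interval of the ratio of summed counts and the floors cover counting error only. The intervals of log2 fold changes come from the edgeR fit and include the spread between libraries.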

Additional observations from a re-analysis of the deposited data

Results flagged for a closer look

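Over 28 groups of 4 libraries, 4 held a library whose gap to the nearest of the others was large for the range of its group, where chance gives about 1.4. Ly6c1 had 2.23 normalized counts in Sca1- replicate 3 and 0 in the other 3 Sca1- libraries, which corresponds to 2 raw counts. With 3 libraries at 0 any count in the remaining library is flagged, so the chance number does not cover this group. Lypd3 had 370 normalized counts (369.6) in Sca1- replicate 2 and 307 to 313 in the others, and without this library its log2 fold change was -0.02. Pigl had 157 normalized counts (156.8) in Sca1+ replicate 2 and 141 to 143 in the others. Them6 had 48.7 normalized counts in Sca1- replicate 1 and 43.1 to 43.4 in the others.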

How the results depend on the processing

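Over every alternative that gave a value, Ly6a stayed higher at log2 fold changes of 5.90 to 7.14 (6.05 to 7.14 with each library left out in turn), Ly6c1 at 5.07 to 8.51 (5.70 to 8.51), Lynx1 at 3.01 to 3.65 (3.23 to 3.65) and Ly6e at 1.11 to 1.25 (1.15 to 1.25). Lypd3 ran from -0.27 to -0.02 (-0.12 to -0.02 with a library left out) and passed the threshold only with GC-corrected offsets, at -0.27, which made 1 member lower. With at least 10 counts in every library, 1 member and 1 neighbour outside the family within 500 kb were higher, since fewer genes were tested, and Ly6a, Ly6c1 and Lynx1 had no value. For Ly6c2 and Ly6d no fold change is given under any alternative, because both groups were under the floor of 3 counts per library. Of the other relatives, 1 was called, but 4 without the low-count filter and 4 by limma on the normalized table (Plaur, Ly6g6c, Slurp1 and Lypd2 in both), and 1 to 3 with a library left out. The number was 2 without Sca1+ replicate 1, Sca1- replicate 1 or Sca1- replicate 3, each time with Ly6g6c, and 3 without Sca1- replicate 4, with Ly6g6c and Ly6g5b. With the added demand of a log2 fold change of 1 or more in size, 0 relatives and 0 GPI anchor genes were called (by edgeR; 1 and 14 at an adjusted p under 0.05 alone), and 715 of the 7206 calls over the whole table remained, 612 higher and 103 lower. Neighbours called higher were 11 with the window of 1000 kb. With a library left out, whole-table calls ran from 6723 to 7190, GPI anchor genes from 12 to 14 and these neighbours from 2 to 3.

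In the fit with replicate number as a block, 4 members, 1 relative and 14 GPI anchor genes were called, and all 19 were those called without it. Its log2 fold changes were 6.42 for Ly6a, 6.09 for Ly6c1, 3.43 for Lynx1, 1.20 for Ly6e and -0.08 for Lypd3. Same-numbered libraries had correlated deviations of -0.15 to 0.0957, so the numbers were not taken as pairs.

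Depth limits Lypd6b, Ly6c2 and Ly6d, which stood at 4 counts or fewer in every library. It also limits the 4T1-Sca1- levels of Ly6a, Ly6c1 and Lynx1.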
